A study of Rattus norvegicus with 10 samples.

Results

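Inflammasome, interleukin-1 and chemokine genes were followed in 10 rat lacrimal glands through 7 genes: Casp1, Il1b, Il18, Il1r1, Ccl2, Ackr3 and Nfkbia. All probe sets that the array's annotation assigns to these symbols were taken, 17 of 8740, dim ones included. The group was chosen by measured values: it was built around Casp1 and Ackr3, for which every denervated gland lay above every control gland at 1 probe set. The values of denervated against control glands are therefore a description of these genes, and no test of that contrast is given for them. The 7 genes are part of 4736 that the annotation names singly. Of the 17 probe sets, 11 passed the filter on dim probe sets and 6 did not, and each gene kept at least 1.

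The lacrimal gland secretes the watery part of the tear film, and its parasympathetic supply runs through the greater superficial petrosal nerve. Denervated glands (n = 5) were taken 7 days after section of that nerve. The 5 control glands were 3 contralateral glands at the same time, 1 gland after a sham operation, also at 7 days, and 1 unoperated gland. The labels name no strain, sex or age. They also do not say whether each gland had its own animal, and a p-value here therefore covers the spread among these 10 samples, part of which may be technical. The 3 contralateral glands are so named in their titles, although the longer labels put them on the operated side, and the titles were followed.

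Inflammasomes are protein complexes of the cytosol that activate caspase-1, the product of Casp1. Caspase-1 cleaves the precursors of interleukin-1 beta (Il1b) and interleukin-18 (Il18), which then leave the cell. Interleukin-1 beta acts through its receptor, encoded by Il1r1, on NF-kappaB, a family of transcription factors that is held in the cytosol by inhibitors such as the product of Nfkbia. Ccl2 encodes a chemokine that attracts monocytes, and Ackr3 an atypical receptor that binds the chemokine CXCL12 and removes it. These genes are known from macrophages, but epithelial, endothelial and stromal cells express several of them too.

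The sequences before the start sites of Casp1 and Ackr3, the genes with the largest differences, and of Nfkbia, a classical NF-kappaB target, are shown because NF-kappaB and interferons are known regulators of this group. They are the 250 bases before the start, read 5′ to 3′ along the gene, from the RefSeq promoters of build GRCr8, where 6 of the 7 genes matched. Capitals mark matches, on either strand, to the kappaB consensus or to the core of the interferon-stimulated element, GAAA repeated after a gap of 2 bases.
Casp1, chr8:10872580-10872829, plus strand: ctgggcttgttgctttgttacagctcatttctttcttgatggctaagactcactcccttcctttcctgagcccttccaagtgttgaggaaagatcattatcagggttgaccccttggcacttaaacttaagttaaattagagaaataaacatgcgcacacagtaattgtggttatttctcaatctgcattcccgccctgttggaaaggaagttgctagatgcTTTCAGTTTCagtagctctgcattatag
Ackr3, chr9:98247104-98247353, plus strand: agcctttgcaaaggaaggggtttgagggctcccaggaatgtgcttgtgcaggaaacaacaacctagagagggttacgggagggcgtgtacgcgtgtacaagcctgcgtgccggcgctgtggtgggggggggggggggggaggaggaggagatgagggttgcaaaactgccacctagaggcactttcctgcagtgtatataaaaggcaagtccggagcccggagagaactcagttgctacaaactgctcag
Nfkbia, chr6:78597073-78597322, minus strand: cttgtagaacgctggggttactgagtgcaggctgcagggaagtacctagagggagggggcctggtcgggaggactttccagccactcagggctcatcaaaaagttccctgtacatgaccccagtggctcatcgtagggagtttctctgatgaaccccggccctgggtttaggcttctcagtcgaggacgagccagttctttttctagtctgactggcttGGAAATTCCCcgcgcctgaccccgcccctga

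The kappaB consensus had 1 match among the 6 promoters, in Nfkbia, GGGAATTTCC on the opposite strand, from 31 to 22 bases before the start. The interferon element had 1 match, in Casp1, GAAACTGAAA on the opposite strand, from 28 to 19 bases before the start. The matches do not overlap one another. Of 33469 promoter windows of the same length, 4.24% held a kappaB match and 3.41% an interferon element. These matches describe letters, not sites in use.

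On the arrays, 2% trimmed mean intensities ran from 2505 to 2507, and a floor of 156.2, at the 20th percentile, replaced all lower values before the log2 step. All 10 lacrimal secretory epithelium markers on the array, Aqp5 and Rab3d among them, were above the floor in all 10 glands. Contralateral 1, sham and denervated 1 stood apart: their log2 intensities correlated at 0.851 to 0.898 with one another and at 0.715 to 0.821 with the other glands, across probe sets. The other glands correlated with one another at 0.752 to 0.912, so these ranges overlapped. The 3 glands also had the highest summed intensities of the secretory markers (522369 to 853979, against 174597 to 312478 elsewhere). The mean score over these markers, which weights each gene alike, did not set them apart (0.12 to 0.35, against -0.36 to 0.33). The differences of denervated from all control glands were recomputed without these 3 glands for the members' probe sets and the brightest tested probe set of each other gene that the named-gene rule gave, and those that changed sign are marked. In limma fits of the whole table, 0 of 6118 tested probe sets passed at an adjusted p under 0.05 in denervated against all control, contralateral, or unoperated and sham glands, or in contralateral against unoperated and sham glands. At an unadjusted p under 0.05 there were 592 (9.68%), 438 (7.16%), 483 (7.89%) and 299 (4.89%).

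Casp1 has 3 probe sets, and they gave 3 pictures. At U14647_at, denervated glands 1 to 5 had intensities of 1498.6, 1736.6, 715.7, 1067.6 and 3364.1. Contralateral glands 1 to 3 had 464.7, 477.0 and 113.3, the unoperated gland 274.8 and the sham gland 190.1. The groups did not overlap, and the sham gland was close to the low end of the controls. Log2 intensity averaged 10.51 ± 0.83 (SD, n = 5) after denervation against 8.14 ± 0.73 (SD, n = 5) in the controls, a log2 difference of 2.37 ± 0.53 (SE), or 5.17-fold.

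U14647_g_at carries the same GenBank accession in its name as U14647_at. Its intensities in denervated glands 1 to 5 were 142.3, 720.6, 484.5, 318.6 and 1174.3. They were 215.2, 247.3 and 221.6 in the contralateral glands, 674.3 in the unoperated and 1056.0 in the sham gland. Denervated 1, the third highest at U14647_at, was the lowest of all glands here, and the unoperated and sham glands lay among the highest, so the groups overlapped. The log2 difference was 0.26 ± 0.66 (SE), and it was -0.08 without denervated 5.

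At S79676_s_at, the brightest Casp1 probe set, denervated glands 1 to 5 had 1697.1, 3603.0, 2338.1, 1871.5 and 2906.4. Control glands had 1449.4, 2175.5 and 1964.3 (contralateral), 1740.8 (unoperated) and 1282.8 (sham). The highest 3 glands were denervated, and denervated 1 and 4 lay within the control range. The log2 difference was 0.50 ± 0.31 (SE), or 1.41-fold, and it was 0.21 without denervated 2 and 5. Over the 10 glands, which share arrays and scaling, log2 values of U14647_at correlated with those of S79676_s_at at r = 0.644 (Spearman 0.576) and with those of U14647_g_at at r = 0.158 (Spearman 0.224).

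Il1b, the main substrate of caspase-1, was dim. Of its 30 values over 3 probe sets, 13 were at the floor. At M98820_at, the 1 probe set that passed the filter, denervated glands had 289.3, 904.6, 90.2, 786.3 and 89.0, contralateral glands 743.5, 605.3 and 61.6, the unoperated gland 394.7 and the sham gland 209.5. High and low glands occurred in both groups, and the log2 difference was -0.04 ± 0.68 (SE), with its sign changed in 9 of 17 alternatives, leaving out the 3 glands that stood apart among them. At the dim E01884cds_s_at the denervated glands had 496.3, 623.1, 194.1, 355.3 and 74.4, and 4 of 5 control glands were at the floor, contralateral 1 being the exception with 313.7. The log2 difference there was 0.83, and at the dim M98820_g_at it was 0.01.

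Il18 encodes the other cytokine that caspase-1 activates. At the dim AJ222813_s_at, denervated glands 1 to 5 had 726.3, 546.2, 400.5, 202.1 and 1588.9. Contralateral glands had 268.7, 48.1 and 91.7, the unoperated gland 104.3 and the sham gland 104.5. All 5 denervated glands were above the floor and 4 of 5 control glands at it, and the groups overlapped through denervated 4 and contralateral 1 alone. Mean log2 intensity was 9.11 ± 1.10 (SD, n = 5) against 7.44 ± 0.35 (SD, n = 5), a difference of 1.66, which the floor understates. At U77777_s_at the unoperated gland was the highest, with 1139.7, and contralateral 1 the lowest, with 27.5. There the denervated glands ran from 221.7 to 827.7 with a median of 488.8, and the log2 difference was 0.50 ± 0.63 (SE). The Il18 probe sets correlated at r = 0.202 over the 10 glands (Spearman 0.110).

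Il1r1, the signalling receptor of interleukin-1, has 4 probe sets, 3 of them dim. At M95578_g_at, which passed the filter, denervated glands had 733.0, 321.3, 86.0, 346.2 and 1282.0, contralateral glands 658.9, 524.8 and 169.8, the unoperated gland 270.8 and the sham gland 930.2. The extremes of both ends were denervated glands, and the log2 difference was 0.03 ± 0.66 (SE), with its sign changed in 6 of 17 alternatives. At the dim M95578_at the denervated glands ran from 124.4 to 310.2 and the contralateral glands from 320.5 to 382.2, without overlap, while the unoperated gland (203.2) lay among the denervated ones. The log2 difference from all control glands was -0.65 there, -0.62 at U14010_g_at and -0.22 at U14010_at. With the floor at the 30th percentile instead, these were -0.21, -0.32 and -0.01. With the main floor, the difference at U14010_g_at rested on contralateral 1 (1325.6), and was -0.11 without that gland and -0.07 without the 3 glands that stood apart. At U14010_at it was 0.09 without the 3 glands that stood apart, and 7 of the 10 values were at the floor.

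Ccl2 was well above the floor at X17053mRNA_s_at. Denervated glands 1 to 5 had 1144.8, 7542.2, 1049.0, 3798.2 and 2220.3, contralateral glands 1690.0, 2664.5 and 1086.9, the unoperated gland 1503.0 and the sham gland 1437.2. Denervated 2 and 4 were the 2 highest glands, while denervated 3 was the lowest and denervated 1 lay at the low end of the controls. The log2 difference was 0.57 ± 0.50 (SE), and it was 0.15 without denervated 2. At X17053cds_s_at denervated 5 (83.5) and the unoperated gland (114.8) were at the floor, while the other 8 glands ran from 879.0 to 3452.0. The difference was 0.19 ± 0.80 (SE) there, and -0.42 without the unoperated gland.

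Ackr3 has a single probe set, AJ010828_at. Denervated glands 1 to 5 had 1071.9, 1348.9, 816.2, 721.9 and 2365.7. Contralateral glands had 199.9, 213.1 and 156.8, the unoperated gland 332.1 and the sham gland 549.7. The groups did not overlap, and the order ran from contralateral through unoperated and sham to denervated glands. The unoperated and sham levels are single glands, so their place in that order has no spread of its own. Log2 intensity averaged 10.17 ± 0.68 (SD, n = 5) after denervation, 8.03 ± 0.72 (SD, n = 5) over the controls and 7.56 ± 0.23 (SD, n = 3) over the contralateral glands alone. The log2 difference was 2.14 ± 0.52 (SE) from all control and 2.61 ± 0.55 (SE) from contralateral glands, which share the denervated samples.

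Nfkbia, whose protein holds NF-kappaB in the cytosol and which NF-kappaB itself induces, had by far the clearest agreement between its probe sets, r = 0.942 over the 10 glands (Spearman 0.903). At X63594cds_at denervated glands had 4226.6, 6241.5, 12359.9, 15387.0 and 5224.0, contralateral glands 6578.5, 6936.9 and 8255.7, the unoperated gland 16265.9 and the sham gland 7350.8. The unoperated gland was the highest, next to denervated 4 and 3, and denervated 1, 5 and 2 were the 3 lowest. The log2 difference was -0.16 ± 0.37 (SE), and 0.18 ± 0.38 (SE) at X63594cds_g_at. These differ in sign, and each lies within its error of 0.

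**Figure D1:**
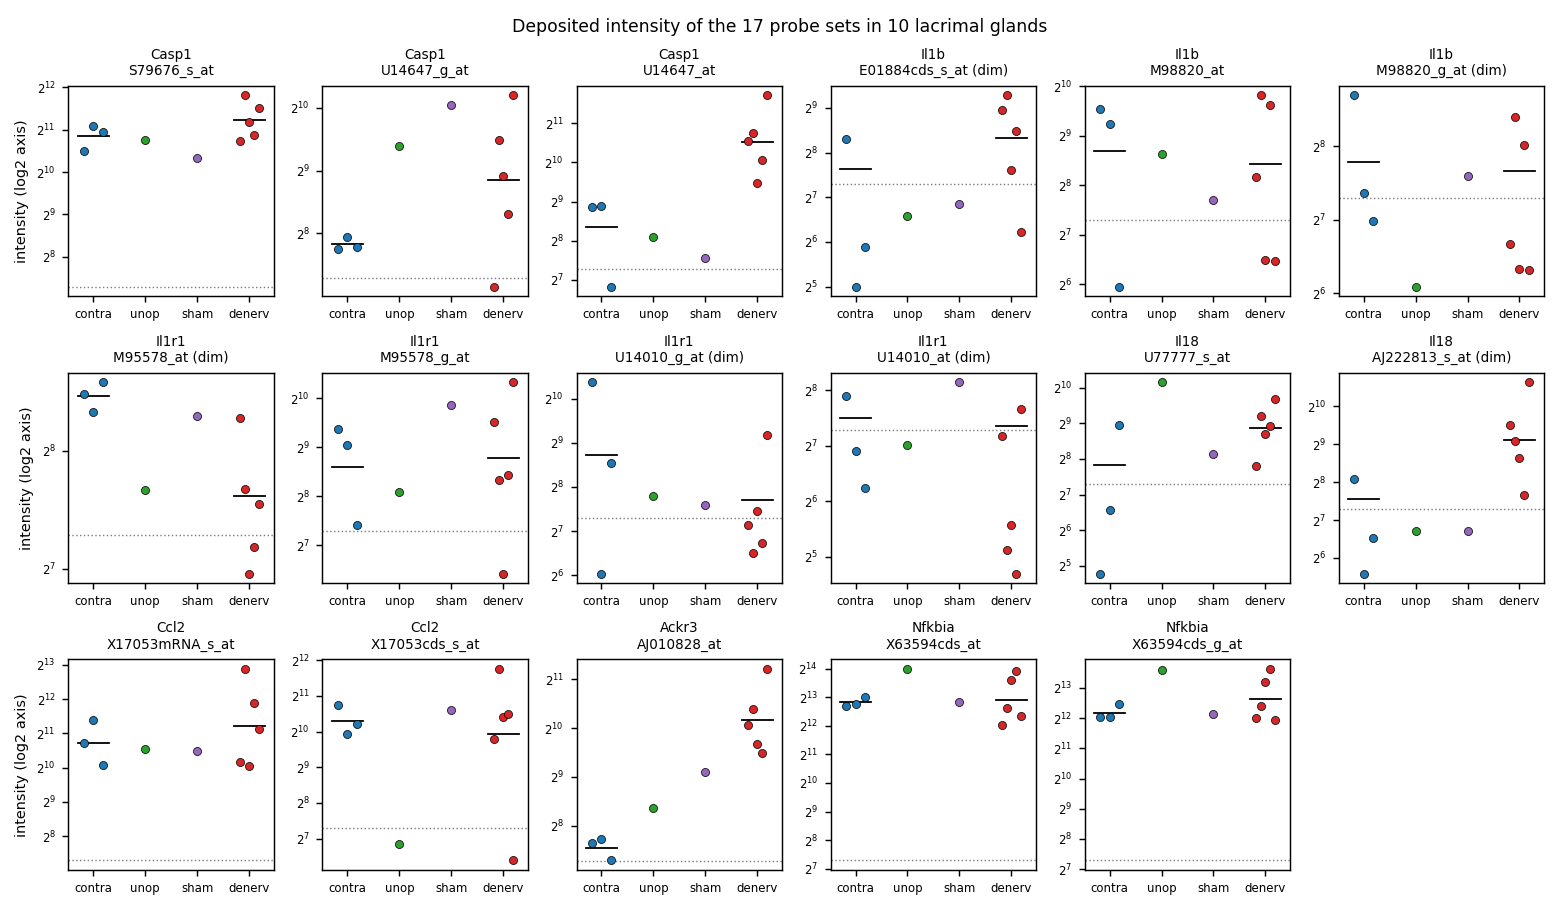
Deposited intensity of each of the 17 probe sets (log2 axis) in contralateral, unoperated, sham and denervated glands. Each point is a gland, black bars are means of floored log2 values, and the dotted line is the floor of 156.2. Only Casp1 U14647_at and Ackr3 have all 5 denervated glands above all control glands.

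Counted over the 17 probe sets, 2 had every denervated gland above every control gland, those that the choice used, and 0 had every one below. Over all 8740 probe sets the shares were 0.469% and 0.858%. The lowest denervated and the highest control gland had 721.9 and 549.7 at Ackr3, and 715.7 and 477.0 at Casp1 U14647_at. Where the groups overlapped, they had 202.1 and 268.7 at Il18 AJ222813_s_at, and 1697.1 and 2175.5 at Casp1 S79676_s_at. The mean was higher in denervated glands at 12 probe sets and lower at 5. Among the 13 probe sets of the 5 other genes it was higher at 8 and lower at 5, where 44.1% of all probe sets had a higher mean. Against contralateral glands, 2 probe sets lay wholly above and 1 wholly below (Il1r1 M95578_at), with 1.62% and 2.28% over all probe sets. The 2 above were again Casp1 U14647_at and Ackr3, whose place the choice had fixed.

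**Figure D2:**
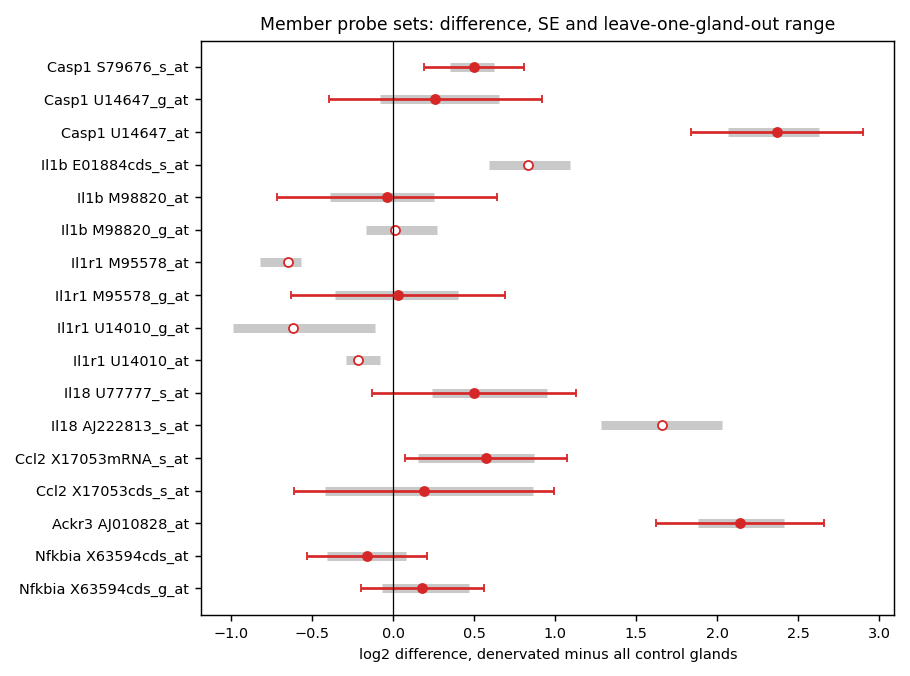
Log2 difference of denervated minus all control glands for the 17 probe sets. Filled points carry the limma standard error, open points are dim probe sets outside the fit, and grey bars span the values on leaving out each gland in turn. Casp1 U14647_at stays between 2.07 and 2.63, Ackr3 between 1.88 and 2.41 and Il18 AJ222813_s_at between 1.28 and 2.03. For Casp1 U14647_at and Ackr3 the choice of genes fixed the sign of these values.

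Contralateral glands were also compared with the unoperated and sham glands, 3 against 2, in a fit whose error variance includes the spread of the denervated glands. Casp1 U14647_at and Ackr3, whose control values the choice used, are given without a test. Of the other 9 probe sets, 0 passed at an adjusted p under 0.05 and 1 had an unadjusted p under 0.05 by limma, against 0% and 4.89% of all tested probe sets. That 1 was Casp1 U14647_g_at, lower in contralateral glands by a log2 difference of -1.89 ± 0.84 (SE; limma unadjusted p = 0.0421, adjusted p = 0.967), with all 3 contralateral glands below both others. Ackr3 was also below both in all 3 contralateral glands, with a difference of -1.18 ± 0.69 (SE). Over all 8740 probe sets 14.7% had such an order and 5.71% the opposite one, which 1 of the 17 showed. Il18 U77777_s_at differed by -1.31 ± 0.87 (SE; limma adjusted p = 0.977), and by -0.31 without the unoperated gland. Nfkbia differed by -0.60 ± 0.53 at X63594cds_at and -0.69 ± 0.54 at X63594cds_g_at (SE; limma adjusted p = 0.981 for both), and by -0.03 and 0.04 without the unoperated gland. Casp1 U14647_at differed by 0.51 ± 0.78 (SE). Denervated glands differed from the unoperated and sham glands by 2.68 ± 0.71 (SE) at Casp1 U14647_at, by 1.43 ± 0.63 (SE) at Ackr3 and by -0.88 ± 0.77 (SE) at Casp1 U14647_g_at.

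Genes around these members were taken from 5 lists, with 1 probe set per gene, the brightest tested one. In denervated against all control glands 0 of their genes passed by limma. The inflammasome list held 24 genes besides Casp1, of which 6 were on the array. Nlrp3, Pycard and Casp4 had 0 probe sets that the annotation names singly, so the tested genes do not stand for the inflammasome as a whole. Of the 5 tested genes, 3 were higher and 2 lower, with a median log2 difference of 0.87, against -0.08 over all tested probe sets. All 3 of the higher ones had an unadjusted p under 0.05, where 5.02% of all tested probe sets were higher at that level. Against contralateral glands alone, 1 of the 5 was higher at that level by limma, as were 254 of all 6118 tested probe sets. Txnip, which binds thioredoxin and the sensor NLRP3, differed by 1.45 ± 0.40 (SE; limma adjusted p = 0.434), and by 1.00 at another probe set. Its highest control gland, contralateral 2 with 39272.3, exceeded 4 of the 5 denervated glands, so the groups overlapped. Nek7, a kinase that NLRP3 needs for assembly, differed by 1.65 ± 0.57 (SE; limma adjusted p = 0.437), with denervated 1 (1031.7) within the control range of 482.1 to 1813.5. Its unoperated (482.1) and sham (489.1) glands lay below the contralateral ones (1265.2 to 1813.5). From contralateral glands alone Nek7 differed by 0.97 ± 0.58 (SE). The ATP-gated channels P2rx7 and P2rx4, which can trigger inflammasomes, differed by -0.90 ± 0.79 (SE) and -0.74 ± 0.45 (SE), with limma adjusted p of 0.728 and 0.609, and without denervated 2 and 5 these were 0.08 and 0.13.

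Among interleukin-1 family genes 5 were tested besides the members, 3 higher and 2 lower, with a median of 0.01. Il33, an alarmin stored in nuclei, had intensities of 1467.6, 7373.6, 3760.2, 5586.2 and 3762.3 in denervated glands 1 to 5, and control glands ran from 1140.5 to 2837.0. Denervated 1 alone lay within the control range, and the log2 difference was 1.11 ± 0.41 (SE; limma adjusted p = 0.451). The other family members are receptors with small differences: the decoy receptor Il1r2 (0.01 ± 0.40 SE), the co-receptor Il1rap (0.28 ± 0.57 SE), the interleukin-33 receptor Il1rl1 (-0.13 ± 0.40 SE) and Il1rl2 (-0.15 ± 0.73 SE, and 0.55 without the 3 glands that stood apart). Il1rap differed by -0.21 at a dim probe set. The 4 had limma adjusted p from 0.892 to 0.994. Il1a and the antagonist Il1rn fell under the filter.

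Chemokines and their receptors gave 15 tested genes besides the members, 10 higher and 5 lower, with a median of 0.44. Of these, 3 were higher at an unadjusted p under 0.05 and 0 lower (5.02% and 4.66% of all tested probe sets). Ccl11, the eosinophil chemokine eotaxin, had 580.1, 694.6, 911.6, 861.5 and 1721.8 in denervated glands 1 to 5, above all control glands. Contralateral glands had 384.9, 68.1 and 154.0, the unoperated gland 337.0 and the sham gland 297.9. Its log2 difference was 1.83 ± 0.50 (SE; limma adjusted p = 0.434). Cxcl14 differed by 1.02 ± 0.33 (SE; limma adjusted p = 0.435), and by 0.75 at another probe set, with denervated 3 within the control range. The neutrophil chemokine receptors Cxcr2 and Cxcr1 had -1.17 ± 0.63 (SE) and -0.69 ± 0.61 (SE), with limma adjusted p of 0.570 and 0.728. Ccr2, the receptor of the Ccl2 product, had -0.38 ± 0.68 (SE; limma adjusted p = 0.878), and 0.30 without denervated 2 and 5. Cxcr4, the signalling receptor that shares CXCL12 with the Ackr3 product, had -0.13 ± 0.38 (SE; limma adjusted p = 0.928), with -0.38 and 1.77 at other probe sets, which differ in sign.

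In the NF-kappaB list 13 genes were tested besides Nfkbia, 9 higher and 4 lower, with a median of 0.28. Nfkb1, which encodes a subunit of NF-kappaB, had 1992.9, 4275.2, 4501.0, 3817.7 and 4375.9 in denervated glands 1 to 5, and control glands ran from 859.3 to 3172.2. The 4 glands other than denervated 1 lay above all controls, and the log2 difference was 1.05 ± 0.41 (SE; limma adjusted p = 0.451). Cebpb, a transcription factor of the acute phase, showed the same arrangement with 1.01 ± 0.36 (SE; limma adjusted p = 0.448), and 1.00 at another probe set. Lower values were found for Ptgs2, the inducible cyclooxygenase (-1.08 ± 0.67 SE), and Cebpd (-0.73 ± 0.46 SE), but Cebpd had 1.14 and 1.10 at its other probe sets. Their limma adjusted p were 0.617 and 0.631. Icam1, an adhesion molecule, differed by 0.70 ± 0.67 (SE; limma adjusted p = 0.748), and by -0.88 at another tested probe set. Tnf and Il6 fell under the filter.

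Of 8 other caspase and apoptosis genes, 5 were higher and 3 lower, with a median of 0.08. Of these 8, 1 had an unadjusted p under 0.05 by limma (9.68% of all tested probe sets did, in either direction). This was Casp2, at 1.53 ± 0.48 (SE; limma adjusted p = 0.435), but -0.14 and 0.33 at its other probe sets. Bid, which links caspase-8 to mitochondria, differed by 0.62 ± 0.58 (SE; limma adjusted p = 0.739). Bcl2 and Diablo, which restrain and promote cell death, had -0.46 ± 0.50 (SE) and -0.32 ± 0.26 (SE), with limma adjusted p of 0.779 and 0.702. Bcl2 had 0.23 and 0.03 at dim probe sets.

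**Figure D3:**
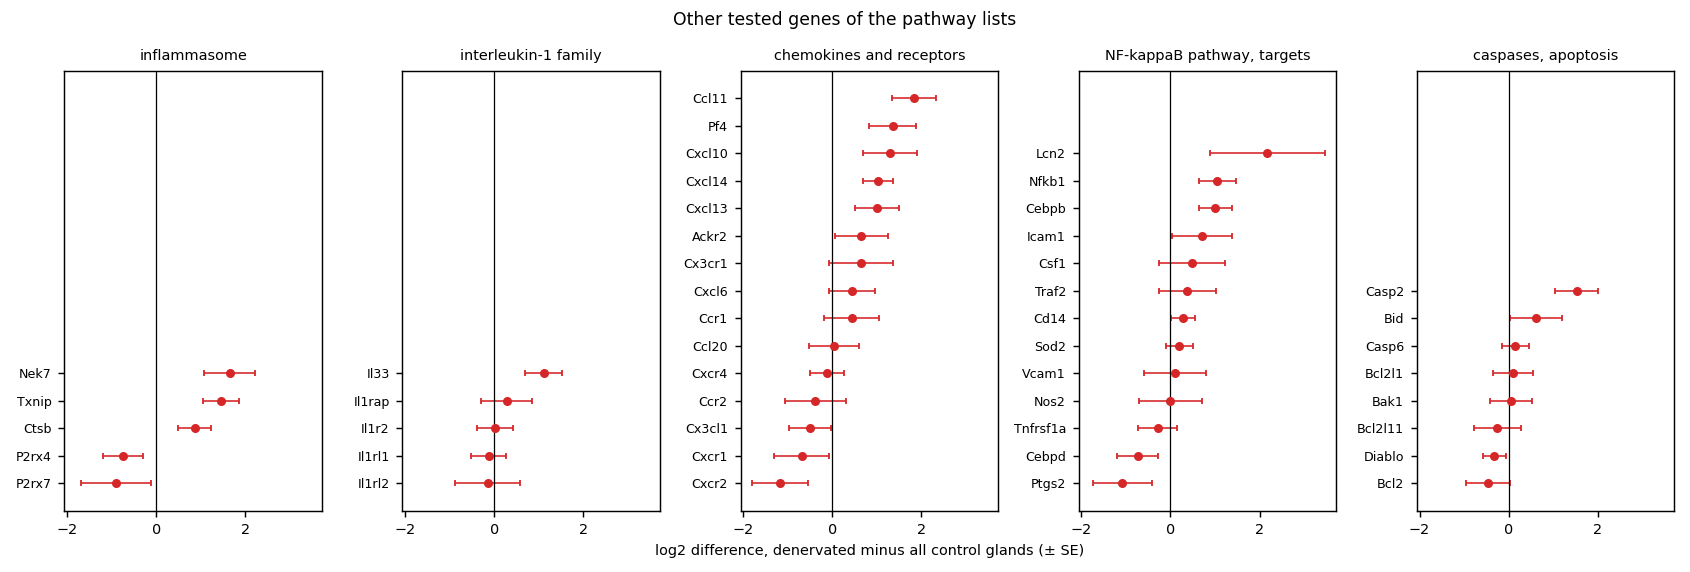
Log2 difference (± limma SE) of denervated minus all control glands for the tested genes of 5 lists, without the members. Most intervals of 1 SE in the interleukin-1 and apoptosis panels include 0 or lie next to it, while Lcn2, Ccl11, Nek7, Casp2, Txnip and Pf4 lie at 1.35 or more, Lcn2 with the widest interval of these (2.17 ± 1.29). For Lcn2 the sham gland (148.9) was at the floor, while the other control glands ran from 7578.1 to 59525.2. From contralateral glands alone Lcn2 differed by 0.78 ± 1.35 (SE).

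Macrophage and monocyte markers were higher at 9 of 10 tested genes, with a median log2 difference of 0.53, with 3 of these 9 at an unadjusted p under 0.05 (5.02% of all tested probe sets were higher at that level). Their summed intensity ran from 47875 to 124744 in denervated and from 33980 to 76906 in control glands, and no marker was at the floor in all glands. In whole glands, more cells of a type and more RNA per cell cannot be told apart. The marker score, each marker's log2 distance from its control mean averaged over the list, was 0.85, 0.97, 0.89 and 0.81 in denervated 2 to 5 and -0.14 in denervated 1, within the control range of -0.26 to 0.25. Casp1 U14647_at and Ackr3 were above all control glands in denervated 1 as well, which their choice fixed, and so was Il18 AJ222813_s_at. The other probe sets of Casp1 and Il18 were not: in denervated 1, Casp1 S79676_s_at (1697.1) and Il18 U77777_s_at (221.7) lay within the control range, and Casp1 U14647_g_at (142.3) below it. At the brightest probe sets of Nek7, Txnip, Il33, Nfkb1, Cebpb and Casp2, denervated 1 lay within the control range, as its score did. At Txnip denervated 2, 3 and 5 lay within that range too, although their scores did not. At the brightest probe sets of Ccl11 (580.1) and Cxcl14 (5039.9) denervated 1 lay above all control glands, whose highest values were 384.9 and 4708.9. The part of macrophages in these differences was not tested.

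Fibroblast markers were higher at 8 of 9 genes (median 1.42), 7 of them at an unadjusted p under 0.05 (5.02% of all tested probe sets), with scores of 1.92 and 2.44 in denervated 2 and 5, and erythrocyte markers at 3 of 3 (median 0.67), with scores of 2.26 and 1.99 in the same 2 glands. Casp1 U14647_at and Ackr3 also had their 2 highest values in these glands. Without them the log2 differences were 1.89 for Casp1 U14647_at, 1.71 for Ackr3 and 1.16 for Il18 AJ222813_s_at. For Casp1 U14647_at and Ackr3 the choice of genes fixed the positive sign. In the remaining denervated glands 1, 3 and 4 the fibroblast score was -0.05, 1.20 and 0.47, against -0.47 to 0.61 in control glands. Neutrophil markers were lower at 2 of 2 tested genes (median -0.71), endothelial markers at 4 of 5 (median -0.45) and T, B and natural killer cell markers at 8 of 12 (median -0.22), and mast cell markers were higher at 3 of 6 (median 0.34). At an unadjusted p under 0.05 by limma, 2 T, B and natural killer cell markers and 1 mast cell marker were higher, and 0 markers of these lists were lower. The part of these cell types in the results was not tested.

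**Figure D4:**
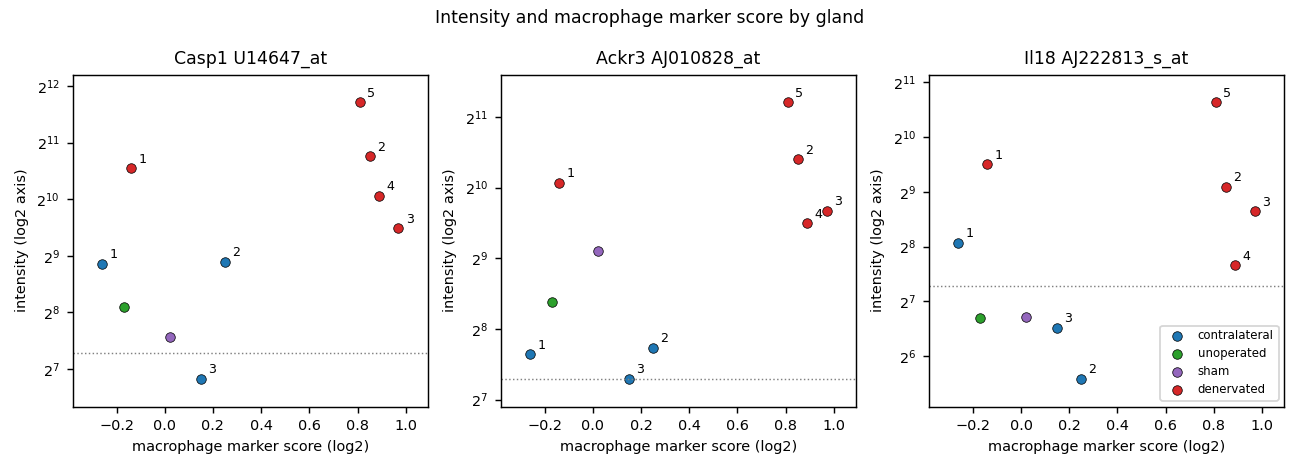
Intensity (log2 axis) of Casp1 U14647_at, Ackr3 and Il18 AJ222813_s_at against the macrophage marker score of each gland, with gland numbers for contralateral and denervated glands and the floor as a dotted line. Denervated 1, with a score of -0.14, lies among the control glands on the horizontal axis. Its place above them on the vertical axis was fixed by the choice of genes for Casp1 and Ackr3.

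The probe sets whose log2 values were most like those of Casp1 U14647_at over the 10 glands, among 4998 with 1 other symbol, were both probe sets of Dmbt1, a scavenger receptor of mucosal defence (r = 0.938 and 0.910, Spearman 0.939 and 0.915). They were followed by the renal dipeptidase gene Dpep1 (r = 0.890, Spearman 0.867), Bad (r = 0.877, Spearman 0.927) and Fmo1 (r = 0.876, Spearman 0.912). For Ackr3 they were, among 5000, Rab12 (r = 0.899, Spearman 0.833), the fibroblast receptor Pdgfra (r = 0.895, Spearman 0.915), Rack1 (r = 0.891, Spearman 0.952), Cmtm6 (r = 0.887, Spearman 0.903) and Marcks (r = 0.886, Spearman 0.879). All points share the arrays and their scaling, and the denervated glands set much of the order, so these values only describe likeness.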

How the data were processed

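Total RNA of 10 rat lacrimal glands was measured on Affymetrix rat arrays, 1 per gland. The authors' deposited values are linear intensities for 8799 probe sets. That each array had been scaled to a common level was read from the values themselves, and the sources used here name no software, background correction or detection call. The deposited scaling was kept, values under the 20th percentile were set to it, the 59 control probe sets were left out, and 6118 probe sets were tested, those whose mean log2 value exceeded the 30th percentile. An intensity at the floor has no order, so a difference that involves the floor depends on where it is set, and the number of arrays limits the precision.

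Groups followed the titles. Linear models came from limma (version 3.58.1, under R 4.3.3), with moderated variances and a variance trend, as two-sided tests adjusted by Benjamini-Hochberg over all tested probe sets and a threshold of 0.05. A fit of 2 classes gave denervated against all control glands, and a fit of 3 classes the other comparisons. The fit was tested on simulated data. The members and lists were chosen with earlier results of these data known. Named genes were the members, their direct partners, up to 2 higher and 2 lower genes of each list with the smallest p, and the 5 probe sets most like Casp1 and Ackr3. Pf4 and Lcn2 were named in a caption after their values were seen. Symbols came from the platform annotation, which gave 7006 of 8740 probe sets 1 symbol, 308 several and 1426 none, updated by gene ID through RefSeq's GRCr8 table (6985 matched). Contralateral and denervated glands share numbers 1 to 3. Their deviations from the group means correlated at 0.465, 0.107 and 0.253 for the same number, over the tested probe sets. Contralateral 2 correlated more closely, at 0.256, with a denervated gland of another number. The number was treated as a possible pairing only in an alternative, a fit of the 6 numbered glands with the number as a block. The fits behind the errors and p-values given above had no block by number. Alternatives changed the scaling, the floor, the filter, the variance trend, the array weights or the choice of probe set per gene, or left out each gland in turn. The 3 that leave out or block several glands were chosen after seeing the data. Figures were drawn with matplotlib 3.10.9.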

Additional observations from a re-analysis of the deposited data

Results flagged for a closer look

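Single glands lay far from the rest of their group, by Dixon's criterion at the 95% level, in 8 of 34 groups of 5 glands checked over the 17 probe sets. Chance flags about 1 in 20 groups, and the probe sets of a gene are not independent of one another. Contralateral 1 was the high gland among the controls at Il1b E01884cds_s_at (log2 intensity 8.29), Il1b M98820_g_at (8.69) and Il18 AJ222813_s_at (8.07). The unoperated gland was high at both Nfkbia probe sets (13.99 and 13.60) and low, at the floor, at Ccl2 X17053cds_s_at (7.29). Denervated 5 was the high denervated gland at Il1r1 U14010_g_at (9.17) and U14010_at (7.65). Where all glands of a group but 1 are at the floor, the criterion marks that 1 whatever its value.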

How the results depend on the processing

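In denervated against all control glands, 0 probe sets passed under every alternative run except without denervated 1, so leaving out each gland gave 0 to 70. Against contralateral glands, 1 passed without a variance trend and 1 with array weights, and 0 on leaving out each gland. For contralateral against unoperated and sham glands 7 passed without a filter and 0 to 1 on leaving out each gland, the 1 without the unoperated gland. For denervated against unoperated and sham glands these counts were 13 and 0 to 5, with 5 without denervated 1 and 3 without the unoperated gland. The replicate block on the 6 numbered glands gave 0 passing probe sets, as did the same glands without it, so the pairing changed no call, with 498 against 236 at an unadjusted p under 0.05.

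Casp1 U14647_at, Casp1 S79676_s_at, Ackr3, both Il18 probe sets, Ccl2 X17053mRNA_s_at, Il1b E01884cds_s_at, Il1r1 M95578_at and Il1r1 U14010_g_at kept their sign under all 17 alternatives, and the other 8 probe sets did not. For Casp1 U14647_at and Ackr3 the choice of genes fixed the sign wherever glands were left out. Casp1 U14647_at ranged from 1.89 (without denervated 2 and 5) to 2.63 and Ackr3 from 1.71 (the same) to 2.41. Il18 AJ222813_s_at ran from 1.08 with the floor at the 30th percentile to 2.23 at the 10th. With the same 2 floors Il1r1 M95578_at was -0.21 and -0.74. Median scaling moved the median difference of all tested probe sets from -0.08 to 0.04, and their share of higher values from 44.6% to 53.1%.

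Some differences turned sign, and not all of these were small. Without denervated 2 and 5, P2rx4 was 0.13 (from -0.74), P2rx7 0.08 (from -0.90), Ccr2 0.30 (from -0.38) and Il1r2 -0.14 (from 0.01). Il1r2 was -0.16 with array weights. Without the 3 glands that stood apart Il1rl2 was 0.55, and with these as a block Il1rl2 was 0.11 and Cxcr4 0.00. Leaving out each gland gave -0.15 to 0.18 for Il1r2, -0.53 to 0.47 for Il1rl2, -0.39 to 0.08 for Il1rl1, -0.09 to 0.58 for Il1rap and -0.34 to 0.13 for Cxcr4. For contralateral against unoperated and sham glands it gave -1.26 to 0.52 for Il1r1 M95578_g_at, -0.12 to 0.53 for Ccl2 X17053mRNA_s_at, -0.32 to 3.00 for Ccl2 X17053cds_s_at and -1.42 to 0.04 for Nfkbia X63594cds_g_at. The causes were not tested.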

Other observations

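Casp1 U14647_at and U14647_g_at differed from each other by 2.11 in their log2 difference between denervated and control glands. The array has 599 such pairs, named for the same accession with endings _at and _g_at, with both probe sets tested. Their median gap was 0.31, and 3 pairs, 0.501%, the Casp1 pair included, had a gap of 2.11 or more. The pairs' log2 values correlated over the 10 glands at a median r of 0.439, with quartiles of 0.136 and 0.714, and in 181 pairs, 30.2%, the differences had opposite signs. The Casp1 pair was looked at after its values were seen. Its gap contains the difference at U14647_at, which the choice of genes used, so its rank among the pairs is only a description.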
